A study of Caenorhabditis elegans with 2 samples.

Results

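The cuticle collagen genes of Caenorhabditis elegans were examined for binding sites of ZNF-207, the zinc finger protein encoded by znf-207 (B0035.1). They were taken as the nuclear protein-coding genes named col-*, together with dpy-2, dpy-3, dpy-7, dpy-8, dpy-10, dpy-13, dpy-17, rol-6, sqt-1, sqt-3, bli-1, bli-2 and lon-3. The rule found 169 genes of 19973 nuclear protein-coding genes in the WBcel235 annotation, 156 of them numbered col genes and 13 named for a body shape or skin phenotype. The other 19804 protein-coding genes served as the background. The chromatin immunoprecipitation came from 1 group of whole hermaphrodites of strain xtl1186, which stably express ZNF-207 with a GFP-FLAG tag at its C terminus. Worms were starved as L1 larvae after bleaching and collected as young adults 50 h after synchronization, and 2 biological replicates were precipitated with an anti-GFP antibody. Because whole worms were used, a peak that few nuclei carry and a peak that is weak in many nuclei cannot be told apart, and the epidermis was not separated from other tissues. The labels point to a possible control experiment, which was not analysed here, so no untagged or input level stands beside the values.

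The 4 deposited peak lists used here are all on ce11, the same assembly as WBcel235. The thresholded list of 750 peaks holds the peaks kept by the authors' test of agreement between replicates. The pooled list of 30000 peaks, the replicate 1 list of 30000 and the replicate 2 list of 25036 are the longer inputs to that test and hold background regions by design. All 750 thresholded peaks stood at the same rank in the pooled list, so these 2 lists are not independent of each other. Each peak has a summit, the single base of highest signal, and a signal value that the authors' peak caller gave it. Signal is read only within its own list, where rank 1 is the strongest peak. The read depth behind the lists is unknown.

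Cuticle collagens are small secreted proteins built of glycine-X-Y triplets, in which glycine recurs at the first position so that 3 chains can wind into a triple helix. The epidermis makes them in waves at each moult, procollagens are hydroxylated, trimmed and cross-linked, and the products form the exoskeleton that gives the worm its shape. Mutations in individual members make worms short (dpy, dumpy), rolling (rol), squat (sqt), blistered (bli) or long (lon). Typical genes of the family are short and have few introns. The annotated members had a median length of 1219 bp and 1 intron, against 2039 bp and 4 introns in the other genes. Their longest coding sequences held a median of 304 codons, and 168 of 169 had at least 1 stretch of 5 or more consecutive glycine triplets, the exception being col-17.

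The finding turns on where summits lay in these genes, so coding sequence under summits is shown first, from the 3 members with the strongest pooled summits in their own coding exons and from dpy-13, a phenotype-named member with a weaker one. The 4 lines below give 99 bases of the coding strand centred on the pooled summit, read from the RefSeq genome for the ce11 assembly, in the reading frame and with each glycine codon in capitals.
col-19: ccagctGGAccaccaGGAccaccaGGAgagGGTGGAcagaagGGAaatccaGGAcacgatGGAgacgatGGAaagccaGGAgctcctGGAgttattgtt
col-140: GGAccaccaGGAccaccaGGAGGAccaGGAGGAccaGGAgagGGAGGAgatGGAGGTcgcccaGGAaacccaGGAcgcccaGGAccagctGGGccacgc
col-124: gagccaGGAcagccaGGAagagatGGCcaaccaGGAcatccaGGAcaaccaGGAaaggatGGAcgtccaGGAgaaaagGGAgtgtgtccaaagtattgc
dpy-13: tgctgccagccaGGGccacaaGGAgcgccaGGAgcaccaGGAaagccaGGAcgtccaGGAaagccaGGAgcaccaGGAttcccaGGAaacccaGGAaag
The col-19 run lies at chrX:422071-422169 on the plus strand and carries 11 glycine codons among its 33. The col-140 run is at chrV:5836152-5836250 on the minus strand with 15 glycine codons and a GC content of 68.7%. The col-124 run is at chrIV:10217260-10217358 and the dpy-13 run at chrIV:4235992-4236090, both on the plus strand. In all 4 most glycine codons read GGA, and they recur at the spacing of the glycine-X-Y repeat.

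The first question was whether ZNF-207 peaks lay at the promoters of these genes, in a window that opened 500 bp before the annotated start and closed 200 bp after it. No member had a thresholded peak there, 0 of 169, which allows a share of up to 1.78% (3 counts of the total; the Wilson interval ends at 2.22%). The share among other genes was 1.65%, so about 2.79 members would have had one at that share, and 169 genes are too few to tell 0 from it. In the pooled list 26 members (15.4%, 95% Wilson interval 10.7 to 21.6) had a summit in the window, against 26.3% of other genes. Replicate 1 gave 30 members (17.8%, interval 12.7 to 24.2) against 26.1%, and replicate 2 gave 21 (12.4%, interval 8.27 to 18.2) against 21.7%. In all 3 longer lists the interval for the collagen genes ended below the share of other genes when the summit had to lie in the window. Counting any overlap of the peak with the window ended that separation, with 29.6% (interval 23.2 to 36.9) against 34.5% in the pooled list, 34.9% (28.1 to 42.4) against 34.8% in replicate 1 and 27.8% (21.6 to 35) against 29.9% in replicate 2. With summits in the window and only genes shorter than the median length (147 members), 2 lists kept it. The pooled interval ended at 21.6, against 22.9% of other such genes, and the replicate 2 interval at 18.5, against 19.5%. In replicate 1 the interval (11.8 to 23.9) covered the 23% of other such genes. These intervals cover counting error over genes only, and neighbouring members are not independent of each other.

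The promoter peaks that were present were of middling strength and seldom shared between replicates. Of the 5000 strongest pooled peaks, those of 5 members (2.96%, interval 1.27 to 6.74) lay in a promoter window, against 7.9% of other genes. Both replicate lists had a promoter summit at 7 members (4.14%, interval 2.02 to 8.30), against 13.3% of other genes. The 7 were bli-1, bli-2, col-8, col-42, col-64, col-97 and col-129, and the pooled list held all of them as well. Those 7 made up 23.3% of the members found in replicate 1 and 33.3% of those in replicate 2, whereas other genes shared 50.9% and 61.1%. The 26 pooled peaks had a median rank of 11703.5, against 10804 for other genes with a promoter peak, and signals from 16.9 to 66.0. The lowest signal in the thresholded list was 88.6, so the strongest collagen promoter peak stood well outside that list.

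**Figure D1:**
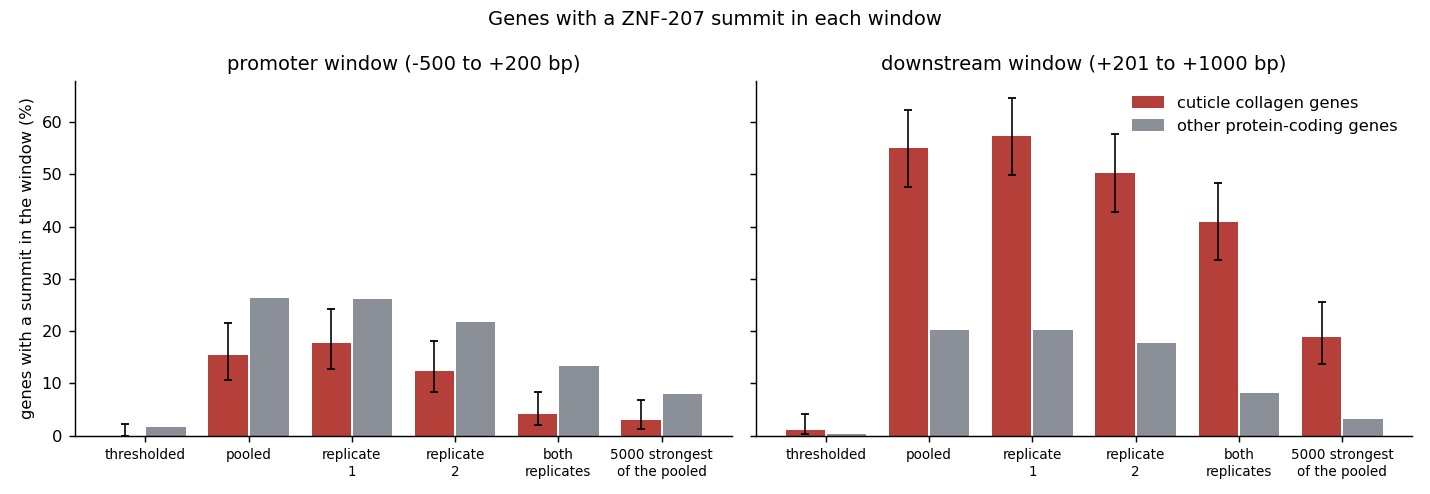
Share of genes (y axis, percent) with a summit in the promoter window (left) and in the window 201 to 1000 bp downstream of the start (right), for 4 peak lists, both replicate lists together and the 5000 strongest pooled peaks. Red bars are the 169 cuticle collagen genes with 95% Wilson intervals and grey bars the 19804 other genes; red is below grey throughout the left panel and above it throughout the right.

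The 3 members nearest to the thresholded limit were col-71, col-44 and col-20. Col-71 (chrII:3500077-3502570, minus strand) had its pooled summit 282 bp upstream with a signal of 66.0 at rank 1520. Its replicate 1 summit ranked 739 and replicate 2 had none, and the pooled summit lay nearer to the start of another gene, Y49F6B.2. Col-44 (chrX:13591475-13592543, plus strand) had a pooled summit 478 bp upstream with a signal of 56.3 at rank 2213. That same summit lay inside the coding exon of the neighbouring collagen gene col-9, where it was 962 bp downstream of the col-9 start. Col-20 (chrII:4869670-4870791, minus strand) had a summit 127 bp inside the gene, in an intron, with a signal of 54.3 at rank 2411, and replicate 2 had none in the window. So none of the 3 had promoter summits in both replicate lists, and col-44 was the only pooled promoter summit that lay inside another member.

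The next strongest pooled promoter peaks showed the same mixture. Col-38 had a signal of 45.6, 491 bp upstream, but that summit was nearer to rpl-5, a large-subunit ribosomal protein gene. Col-64 had a signal of 43.5 with ranks of 12021 and 4601 in replicates 1 and 2. Dpy-17, a collagen whose loss makes worms dumpy, had a signal of 39.8 at 195 bp inside its coding exon, and its replicate 2 summit ranked 1116 while replicate 1 had none. Bli-1, a collagen of the struts that join the adult cuticle's layers, had a signal of 39.5 at 336 bp upstream, with ranks of 16643 and 2493 in replicates 1 and 2. Col-129 followed at 39.0, col-42 at 37.4 and col-37 at 35.2, and col-37 had no promoter summit in either replicate. The largest differences between replicates were in opposite directions. Col-71 and col-20 had strong summits in replicate 1 alone, and dpy-17 and col-63 in replicate 2 alone, where col-63 ranked 1259.

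Of the 13 phenotype-named members, dpy-17, bli-1 and bli-2 had a pooled promoter summit (23.1%, near the 26.3% of other genes), and the other 10 had none. Those 10 included rol-6, whose dominant allele is the standard rolling marker of transgenic worms, sqt-1 and sqt-3, and dpy-7, whose promoter is widely used to drive expression in the epidermis. The nearest pooled summit to the rol-6 start was 7467 bp upstream. The other named members without a pooled promoter summit were col-19, which is known as an adult-specific collagen, col-2 and col-40, known from dauer larvae, the transmembrane collagen col-99, and col-7, col-10, col-12, col-13, col-34 and col-62. Col-2 had a replicate 2 promoter summit at rank 11736 and col-12 a replicate 1 summit at rank 15366.

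Short sequence words were counted around the starts, and TATAAA, the TATA box word, differed most in share. The word TATAAA, searched on both strands from 250 bp before to 50 bp after the start, was present in 66.9% of the members' windows, 37.7% of other genes' windows and 37.9% of all windows of that length. On the coding strand it began between 50 and 25 bp before the start in 63 members (37.3%), against 6.2% of other genes. Runs from 2 members with the word and 1 without it are shown, each as the 120 bases up to the annotated start on the gene's strand, with TATAAA in capitals.
col-19: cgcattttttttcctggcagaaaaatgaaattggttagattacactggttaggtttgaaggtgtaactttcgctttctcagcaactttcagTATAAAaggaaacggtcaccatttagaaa
dpy-13: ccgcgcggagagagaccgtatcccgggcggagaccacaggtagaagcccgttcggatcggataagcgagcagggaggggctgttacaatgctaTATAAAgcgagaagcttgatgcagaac
rol-6: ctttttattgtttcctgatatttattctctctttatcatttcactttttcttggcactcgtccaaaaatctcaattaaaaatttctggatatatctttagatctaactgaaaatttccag
The word begins 29 bp before the start in col-19 and 27 bp before it in dpy-13. The rol-6 run ends in the letters of a splice acceptor, and many worm messages are trans-spliced, so an annotated start can lie downstream of the base where transcription begins. Of the 26 members with a pooled promoter peak, 15 had TATAAA anywhere in the searched window, and of the 143 without one, 98 had it. The remaining words differed less: AGGTCA was in 14.2% of members and 8.22% of other genes, AGATAA in 27.2% and 21.1%, GAGAGA in 27.8% and 21.7%, GATAA, which lies within 2 of the other words, in 63.3% and 57.6%, and TGATAA in 29.6% and 30.2%.

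The profile of summits around the start then showed where collagen peaks did lie. Between 200 and 0 bp upstream, the pooled list had a summit at 2.37% of members and 10.3% of other genes. Between 400 and 600 bp downstream it had one at 23.1% of members and 5.70% of other genes, and between 600 and 800 bp downstream at 27.8% and 5.73%. The rise was present in each replicate list. Other genes had their highest bin just upstream of the start, and the members had theirs inside the gene.

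**Figure D2:**
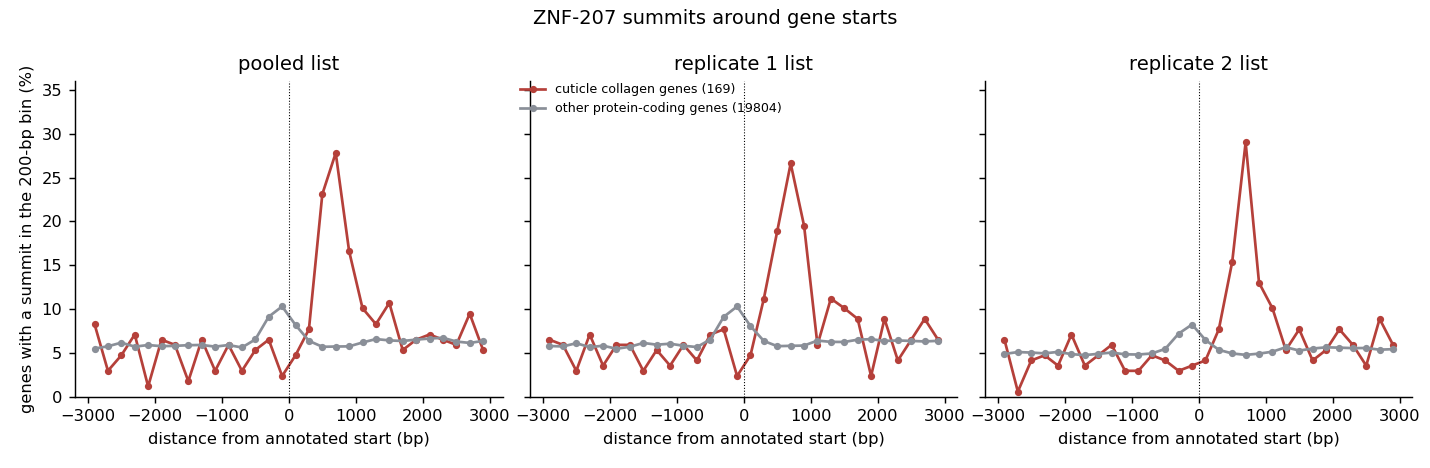
Share of genes (y axis, percent) with at least 1 summit in each 200-bp bin of distance from the annotated start (x axis, bp, negative upstream), in the pooled, replicate 1 and replicate 2 lists. The cuticle collagen genes (red) peak in the bin from 600 to 800 bp downstream, at 27.8% in the pooled list, while other genes (grey) peak between 200 and 0 bp upstream at 10.3%.

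A second window, from 201 to 1000 bp downstream of the start, was chosen after this profile had been seen, and its counts describe the pattern and do not test it. In the pooled list 93 members (55%, interval 47.5 to 62.3) had a summit in it, against 20.2% of other genes. Replicate 1 gave 97 members (57.4%, interval 49.9 to 64.6) against 20.3%, and replicate 2 gave 85 (50.3%, interval 42.8 to 57.7) against 17.7%. Both replicates had a summit there at 69 members (40.8%, interval 33.7 to 48.4), against 8.13% of other genes. Among the 5000 strongest pooled peaks, 32 members (18.9%, interval 13.7 to 25.5) had one, against 3.27%. Thresholded summits lay in the window of 2 members, col-19 and col-85 (1.18%, interval 0.325 to 4.21), and of 0.338% of other genes, a share that the interval covers. In the other lists the interval for the collagen genes lay above the share of other genes.

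The downstream summits were stronger and more often shared between replicates than those at the promoters. Their median pooled rank was 7908, against 14486 for other genes with a summit in the same window. Of the members in replicate 1, 71.1% were also in replicate 2, and of those in replicate 2, 81.2% were in replicate 1; the shares for other genes were 40.1% and 45.8%. The replicates' strongest summits lay within 200 bp of each other at 49 of the 69 shared members (71%). The share was near that of other genes found in both replicates, 67.1%. Across those 69 members the signals in the 2 lists had a Spearman rho of 0.297 and a Pearson r of 0.395 on log10 signal, given as a description across genes that share both libraries. Other genes had slightly higher values, 0.322 and 0.476. In the pooled list 76 members had a downstream summit without a promoter summit, 17 had both, 9 had a promoter summit alone and 67 had neither. Among the 19804 other genes the same counts were 2398, 1593, 3609 and 12204. At least 1 of the 2 windows held a pooled summit at 60.4% of members and 38.4% of other genes.

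Col-19 had the strongest downstream peak that lay in a member's own coding exon. The gene is at chrX:421707-422691 on the plus strand and has 289 codons with 50 glycine triplets. Its summit was 412 bp inside the gene, in a glycine triplet stretch, with a pooled signal of 93.5 at rank 664, and it was in the thresholded list. The replicate summits were 407 and 425 bp inside, at ranks 1282 and 434. All 4 lists therefore placed a summit within the same stretch of the gene, while none placed one in its promoter window.

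The next genes in order had summits outside the thresholded list but in both replicates. Col-140 (chrV:5835855-5836834, minus strand) had a signal of 77.1 at 632 bp inside the gene, with ranks of 1043, 2071 and 915 in the pooled, replicate 1 and replicate 2 lists. Col-124 (chrIV:10216451-10217617, plus strand) had 74.5 at 859 bp inside, with ranks of 1136, 2532 and 744. Col-80 (chrII:10707201-10708287, plus strand) had 67.3 at 562 bp inside, with ranks of 1453, 1075 and 5412. These 3 summits lay in the genes' own coding exons and within glycine triplets. Col-41 followed with 61.8 and col-184 with 59.3, and both had summits in each replicate list.

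**Figure D3:**
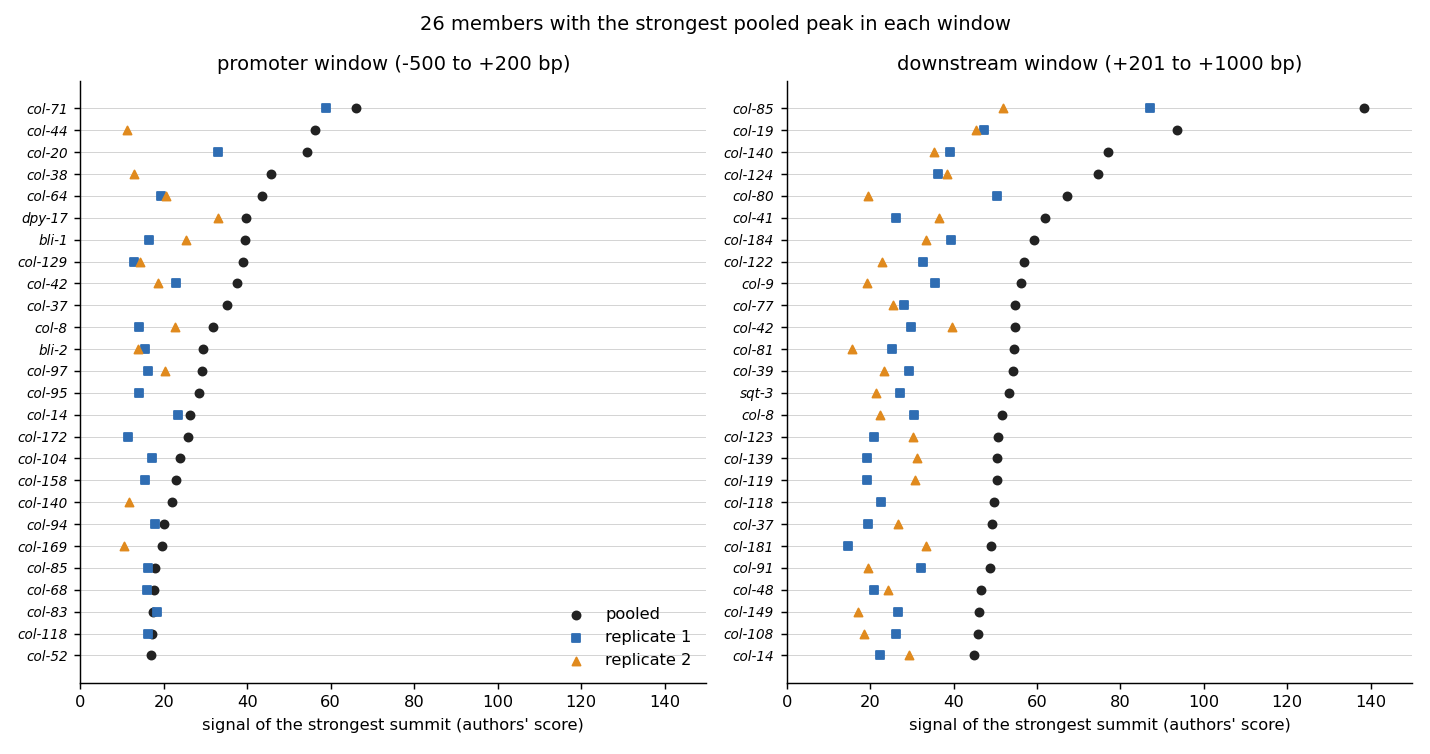
Signal of the strongest summit (x axis, the authors' value, comparable only within a list) for the 26 members with the strongest pooled peak in the promoter window (left) and the downstream window (right), in the pooled (circles), replicate 1 (squares) and replicate 2 (triangles) lists. A missing marker means no summit in that list; in the left panel 7 genes have all 3 markers, and in the right panel most have them.

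Among the phenotype-named members, 8 of 13 (61.5%) had a pooled downstream summit, against 55% of all members and 20.2% of other genes. Of these 8, 7 are described and the strongest is not. Dpy-7 had a pooled signal of 44.3 at 871 bp inside with ranks of 4934 and 13529 in replicates 1 and 2, and dpy-13 had 39.2 at 426 bp inside with ranks of 7439 and 1666. Dpy-3 had its pooled summit at rank 7286, 416 bp inside, and its replicate ranks were 4412 and 4918. These 3 genes had summits in all 3 longer lists and none in the pooled promoter window. Weaker pooled summits were present at dpy-8 (29.7), dpy-17 (24.2), sqt-1 (23.9) and bli-2 (19.4), and of these sqt-1 had one in both replicates. Dpy-10, bli-1 and lon-3 had no downstream summit in any list, dpy-2 had one in replicate 1 at rank 26592, and rol-6 had one in replicate 2 at rank 5134. Of the other named genes, col-34 had a pooled summit of 43.7 at 592 bp inside and both replicates had one at that place within 17 bp. Col-2, col-7, col-10, col-12, col-13, col-40, col-62 and col-99 had none in this window in any list. In dpy-10, bli-1, col-40 and col-99 the window held 0 bp of glycine triplet stretches. The pooled summits nearest to the dpy-10 and col-40 starts lay beyond the window, 1290 and 1567 bp inside those genes.

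**Figure D4:**
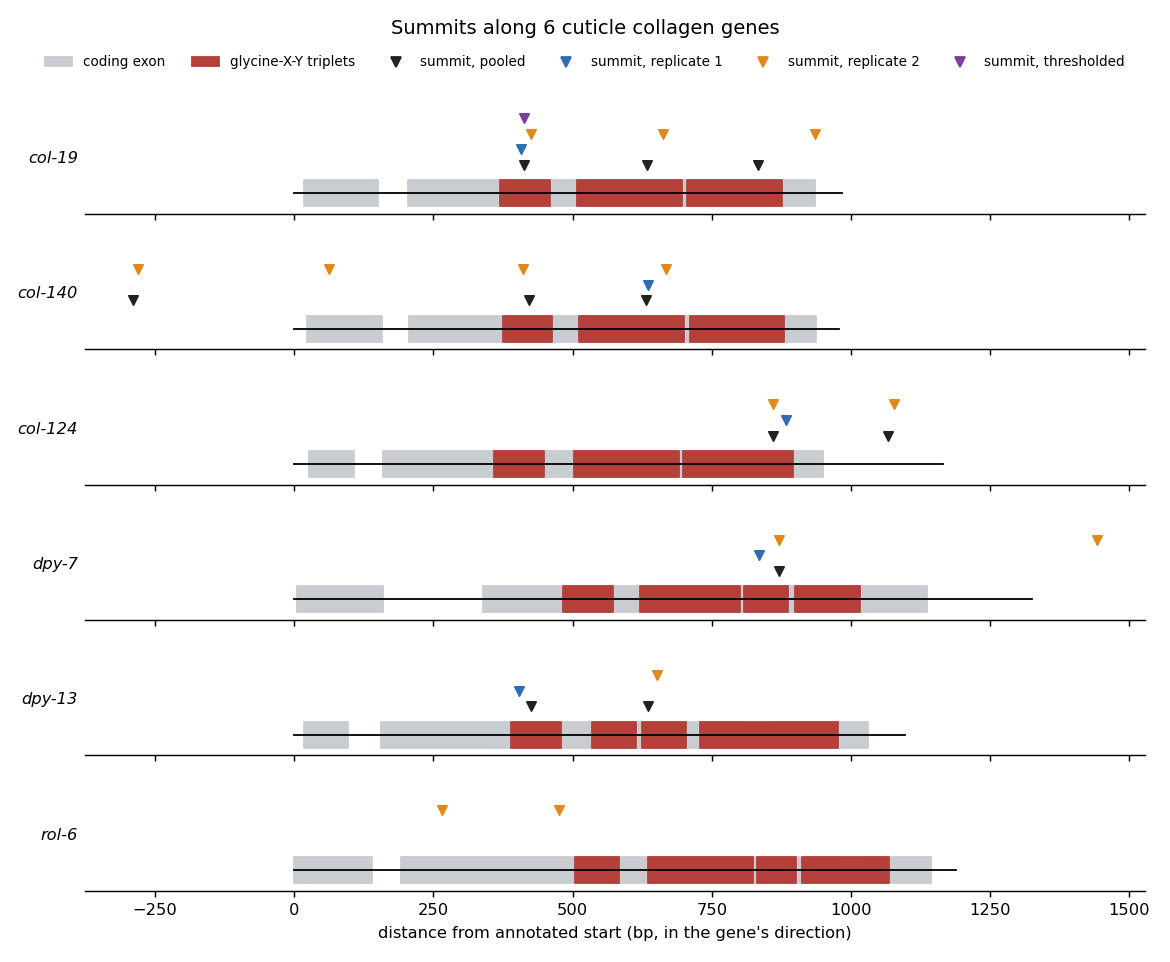
Positions of summits (triangles, colour by list) along 6 cuticle collagen genes, drawn as distance from the annotated start in bp, with coding exons in grey, glycine triplet stretches in red and the gene as a line. The strongest col-19 summits lie near 412 bp in both replicate lists, and the pooled and thresholded lists hold the same peak there. Dpy-7 has summits near 871 bp in 3 lists, and rol-6 has summits in replicate 2 alone.

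The downstream summits lay mainly in coding sequence. In the pooled list 82 of 93 (88.2%) were in the member's own coding exon, a class that filled 74.1% of the window over all members. Glycine triplet stretches held 60 of the 93 (64.5%) and filled 40.7% of the window over all 169 members. Members without a summit count in the 74.1% and the 40.7% but not among the 93. The compared shares are thus over unlike sets, and the window shares of the 93 alone were not computed. The replicate lists gave 63 of 97 (64.9%) and 56 of 85 (65.9%) in such stretches. Over the whole gene, from start to end, the pooled list had a summit inside 120 of 169 members (71%) and 44.1% of other genes, at 0.736 and 0.322 summits per kb.

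Base composition moved with this pattern. The median GC content of the downstream window was 53% in the members and 35.9% in other genes, and within 50 bp of the pooled summits it was 59.4%. Both sets had most summits per tile in the GC-richest sequence. In 100-bp tiles of the downstream window with a GC content of 55% or more, 97 of 637 member tiles (15.2%) and 301 of 3057 tiles of other genes (9.85%) held a pooled summit. At 45 to 54% GC the shares were 7.22% and 4.51%, at 35 to 44% they were 3.18% and 2.41%, and under 35% they were 0.98% and 2.61%. Grouped by the GC content of the whole coding sequence, 87 of 142 members (61.3%) and 37.3% of other genes at 50% or more had a pooled downstream summit, and at 45 to 50% the shares were 25% (6 of 24) and 26.2%. The difference in share between members and other genes was therefore smaller within a GC class than over all genes, and among genes at 45 to 50% it was not seen in the pooled list (replicate 1 gave 33.3% and 26%). How much of the pattern composition accounts for was not tested.

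**Figure D5:**
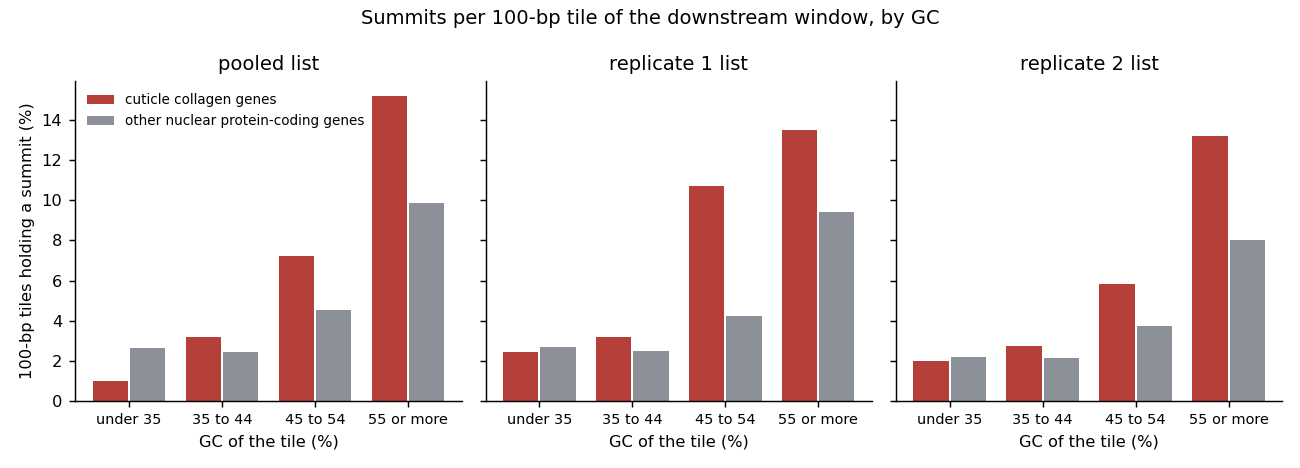
Share of 100-bp tiles of the downstream window (y axis, percent) that hold a summit, by GC content of the tile (x axis, percent), for cuticle collagen genes (red) and other genes (grey) in 3 lists. Bars start at 0 and are tallest in the GC-richest tiles in both sets; in the pooled list they reach 15.2% and 9.85% at 55% GC or more.

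Other genes with long glycine repeats and the family's shared sequence were looked at in the same way. Of the 31 genes outside the rule with at least 20 glycine triplets, 16 (51.6%) had a pooled downstream summit, and of the 151 with 5 to 19 triplets, 37 (24.5%) had one. Of the 19622 other genes with no stretch of 5 triplets, 20.1% had one, so the 24.5% was near that share. Several of the 31 are cuticle collagens that the naming rule leaves out, such as dpy-4 (signal 50.0), dpy-14 (34.6) and sqt-2 (32.2). Rol-1 and rol-8, also cuticle collagens outside the rule, had no pooled downstream summit. The 51.6% is therefore a share over cuticle collagens and other genes together. The basement membrane collagen gene emb-9, with 473 triplets, had no summit there, and let-2, with 477, had one at pooled rank 27006. Triplets were counted over the whole coding sequence. How many of them lie in the downstream window was not computed for genes outside the rule. Related members could also share reads. Of the 36-base words around the pooled summits, 94.1% occurred once in the genome, and at 70 of the 93 members every such word did. At 4 of the 93 members fewer than 50% of the words occurred once, and how reads that match several places were counted is not given in the sources used here. Members without a pooled downstream summit, such as col-7 and col-62, were not checked for copies. A peak missing there for want of uniquely placed reads could not be seen in these counts.

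Thresholded summits lay between the start and end of 4 members (2.37%, against 1.23% of other genes), namely col-19, col-72, col-85 and col-99. The summits in col-72, col-85 and col-99 were intronic and lay within 200 bp of a tRNA gene, and the col-19 summit had no short RNA gene within that distance. Col-85 held the strongest, with a signal of 138 at rank 214, 346 bp downstream of its start. A further thresholded summit, with a signal of 98.6 at rank 580, lay 505 bp upstream of col-63, which is 5 bp outside the promoter window.

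The members were spread over all chromosomes, with 42 on IV, 33 on V, 30 on II, 30 on X, 21 on I and 13 on III. Pooled promoter summits were present at 3 of the 30 X-linked members (10%, against 24.5% of other X-linked genes), 2 of 21 on I (9.52%, against 33.5%), 4 of 42 on IV (9.52%, against 26.4%) and 4 of 33 on V (12.1%, against 19.9%). On II and III the members were not below other genes, at 8 of 30 (26.7%, against 24.4%) and 5 of 13 (38.5%, against 34.5%). On the X chromosome downstream summits were present at 22 of the 30 (73.3%, against 19.1%). On chromosome V 13 of 33 members (39.4%) had a downstream summit, against 17.1%, the lowest share of members on any chromosome. Members also stand in clusters. The run of col-79, col-39, col-80 and bli-1 (chrII:10703613-10712156) had 8 pooled summits inside it and 1 member, bli-1, with a pooled promoter summit. The run from col-167 to col-171 (chrX:6323488-6335221, 5 members) had 3 pooled summits inside and 1 promoter summit, at col-169. The first run thus carried more summits in a shorter stretch.

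A fixed list of genes that make up, process or regulate the cuticle, with 4 basement membrane or other collagens, was near the background at its promoters. It includes 7 genes listed as cuticle collagens outside the naming rule, which gave 3 of the 14 pooled peaks counted next. A further such collagen, dpy-5, was listed among the proteases and had no pooled promoter peak. Of the 57 listed genes found in the annotation, none had a thresholded promoter peak (other genes 1.65%). A pooled one was present at 14 (24.6%, other genes 26.3%), so the counts by role that follow are a description. The strongest were those of the protein disulfide isomerases, enzymes of the endoplasmic reticulum that act on procollagen. Pdi-2 had a promoter signal of 74.3 at rank 1147 and pdi-1 70.2 at rank 1311, with summits in both replicates for each. Among 11 modifying enzymes and oxidases, 3 had a pooled promoter summit, the last being dpy-11, a thioredoxin-like protein of the epidermis, at 37.3. Of 10 epidermal transcription factors 4 had one, led by the GATA factor gene elt-6 at 62.4. Of 10 proteases and inhibitors 1 had one, the cathepsin gene cpz-1 at 49.4; dpy-5, which that list also held, encodes a cuticle procollagen with 52 glycine triplets and had only a downstream summit, at 26.7. Of 9 moulting genes 3 had one, and of 6 cuticlins and 4 basement membrane or other collagens none did. Among the 7 cuticle collagens outside the naming rule that were listed as such, 3 had a pooled promoter summit. A pooled downstream summit was present at 5 (71.4%, other genes 20.2%). Replicate 1 had a downstream summit at all 7 and replicate 2 at 4, against 20.3% and 17.7% of other genes. Rol-1 and rol-8 had theirs in replicate 1 alone, at ranks 15801 and 25211.

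A further 3 gene families were counted in the same windows, with no test of the differences. Nuclear hormone receptor genes (269) had a pooled promoter summit in 19% and a downstream one in 15.6%. Both shares were below those of all genes outside the collagen rule, 26.3% and 20.2%. The 82 cytosolic ribosomal protein genes had a pooled promoter summit in 72% and a downstream one in 73.2%, the latter above the 55% of the collagen genes. A thresholded promoter peak was present at 15 of the 82 (18.3%), against 1.65% of genes outside the collagen rule. Of the 6 vitellogenin genes, which encode yolk proteins, 2 had a promoter and 3 a downstream pooled summit. No expression data stand beside these lists, so whether the genes were transcribed in the worms used was not tested.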

How the data were processed

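Per the file descriptions, the authors made each replicate list from that replicate's alignments, the pooled list from both, and the thresholded list from these; each also lists a further input file without saying what it holds. The aligner and the peak caller, with versions, are not given here in any source used. The deposited signal is the peak caller's, and the deposited −log10 q-value was used for ties only. The ce10 versions were not used here. Replicate labels give biological replicates and no other batch.

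Summits were placed against Ensembl release 115 (WBcel235), from the outermost start of each gene, and ranked within each list with Python 3.11.15 and pandas 2.3.3. A summit counts for every gene whose window holds it. A glycine stretch is a run of at least 5 codon triplets that each begin with a glycine codon. Wilson intervals have 95% confidence. The window counting was tested on simulated peaks at known distances. No test was run between gene groups.

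The members and lists were chosen with earlier results of these data known, and the downstream window after the profile was seen. Named genes were the 10 strongest pooled promoter peaks, all phenotype-named members, 10 numbered genes common in the literature, the 4 largest replicate differences, tandem runs and the members nearest the thresholded limit; genes with strong downstream peaks were named after their values were seen. Of 58 pathway genes listed, elt-5 was not found under that name. The sequence and position under 1 further phenotype-named member's summit are not reported here.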

Additional observations from a re-analysis of the deposited data

How the results depend on the processing

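Of 38 alternative promoter shares, the collagen genes were below other genes in 37; the exception was replicate 1 counted by any overlap of the peak interval (34.9% against 34.8%). All 21 alternative downstream shares, chosen after seeing the data, stayed above other genes. Any overlap of the interval raised the promoter counts to 3 members (thresholded), 50 (pooled), 59 (replicate 1), 47 (replicate 2), 27 (both replicates) and 9 (5000 strongest). The interval then covered the share of other genes in the first 5 of these, and in replicate 1 also when only the nearest start counted (17.2%, interval 12.2 to 23.6, against 23.5%). For the 5000 strongest it also did so with the window from 1000 bp upstream (3.67 to 11.3, against 10.4%). The 2500 strongest (0.606 to 5.09, against 4.63%) and the list without replicate 1 (1.64 to 7.53, against 6.5%) gave the same. For thresholded peaks the interval covered that share at every setting tried. A window from 200 bp upstream to 100 bp downstream gave 7 (pooled), 7 (replicate 1), 11 (replicate 2), 3 (both) and 1 (5000 strongest), a median rank of 19899 and a median distance of -31 bp. A window from 1000 bp upstream gave 1 (thresholded), 46 (replicate 1), 32 (replicate 2), 17 (both) and 11 (5000 strongest), and a median distance of -469 bp. Counting only the nearest start gave 3 among the 5000 strongest, the 2500 strongest peaks also gave 3, and any transcript's start gave a median rank of 14508. Leaving out each replicate gave 0 to 1 members (same number of strongest peaks as the thresholded list; the 1 is without replicate 2), 21 to 30 (pooled), 2 to 6 (5000 strongest, 2 without replicate 2), median ranks of 13893 to 17417 and median distances of -222 to -118 bp. Downstream, leaving out each replicate gave 85 to 97 members (pooled) and 25 to 34 (5000 strongest); a window of 201 to 700 bp gave 37 (both) and 21 (5000 strongest), and the 2500 strongest peaks gave 13. The cause of these shifts was not tested. Without depth, a missing peak cannot be told from one too weak to be listed.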
